A study of Saccharomyces cerevisiae BY4741 with 24 samples.

Results

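The snoRNAs that guide RNA modification were examined in budding yeast (Saccharomyces cerevisiae) grown with and without abscisic acid (ABA), a plant hormone. The 34 members are all rows of the deposited comparison tables that the accompanying annotation lists as snoRNA, apart from snR17a, snR17b, snR30 and snR10, which act in the cleavage of ribosomal precursor RNA (pre-rRNA). The tables hold 1042 features in all and 38 of the 77 annotated snoRNAs. All libraries are labelled as BY4741, a laboratory yeast of mating type a, whereas the resources table of the study names another strain for these data. Cultures were grown for 5 h in 4 media: SD-TRP medium alone (untreated), the same medium with 1% methanol, and the same medium with 1% methanol and either 0.5 mM or 2 mM ABA. Methanol is the solvent of ABA, so both ABA groups also carry it and the methanol cultures are their matched control. Each group had 3 libraries of total RNA depleted of rRNA, from separate colonies and days. The growth protocol reads as though each overnight culture seeded all 4 media, so that the groups would share colonies and days, and the sources used here do not say whether the model behind the tables matched them. Of 4 genes that mark mating type a, 3 were in the tables (MFA1, MFA2 and STE2), and of 4 that mark mating type alpha, 0 were.

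A snoRNA works as the address label of a ribonucleoprotein enzyme: it base-pairs with its target RNA and places a shared set of proteins on 1 nucleotide. Box H/ACA snoRNAs fold into hairpins, and their partner Cbf5 turns the chosen uridine into pseudouridine. Box C/D snoRNAs carry short antisense stretches next to box D, and their partner Nop1 methylates the ribose of the paired nucleotide. Most targets lie in the RNAs of the small and the large ribosomal subunit. Of the 34 members, 26 are H/ACA guides and 7 are C/D RNAs. The remaining member, NME1, is the RNA of RNase MRP, an enzyme that cuts pre-rRNA, and is no modification guide although the annotation files it under snoRNA.

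The sequences of the 3 H/ACA guides that passed the test described below are shown because they are the members that were called. They were read from RefSeq R64, in which every member has the same start and end as in the deposited annotation. Capitals mark the last ACA within the final 20 bases.
snR5: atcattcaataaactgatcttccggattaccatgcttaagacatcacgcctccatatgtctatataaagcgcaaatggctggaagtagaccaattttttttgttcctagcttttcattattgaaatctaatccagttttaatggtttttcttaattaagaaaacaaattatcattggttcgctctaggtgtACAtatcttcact
snR49: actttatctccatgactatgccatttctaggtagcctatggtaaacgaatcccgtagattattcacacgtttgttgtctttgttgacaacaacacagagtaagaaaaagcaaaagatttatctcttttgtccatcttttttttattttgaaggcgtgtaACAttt
snR80: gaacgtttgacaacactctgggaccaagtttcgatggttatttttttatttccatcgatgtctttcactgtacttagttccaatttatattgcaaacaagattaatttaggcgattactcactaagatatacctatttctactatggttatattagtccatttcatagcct
snR5 lies at chrXV:842403-842606 on the plus strand, snR49 at chrXIV:716120-716284 on the plus strand and snR80 at chrV:52150-52320 on the minus strand. The ACA of snR49 stands 3 bases before its annotated end, and that of snR5 stands 10 bases before it. The last 20 bases of snR80 hold no ACA. Of the 26 H/ACA members, 14 (53.8%) had ACA followed by 2 to 4 bases at the annotated end, against 18 of all 77 annotated snoRNAs (23.4%). The letters of box H, ANANNA, were found on the RNA strand between 40% and 60% of the length in 21 H/ACA members (80.8%) and of 44 of all 77 (57.1%). Such a match describes letters only.

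For the C/D guides, the stretch that pairs with rRNA could be read directly. The longest run complementary to the small- or large-subunit rRNA was followed within 2 bases by CTGA, the letters of box D, in 3 of the 7 C/D members. In snR63 this CTGA is the box D near the 3′ end. In snR56 and snR41 it lies inside the RNA and is not the box D of the 3′ end. In the guide lines the capitals mark CTGA, and in the rRNA lines they mark the base opposite the fifth base before it, the position at which C/D guides are known to direct methylation. T stands for U.
snR56 guide: cacagacctgtaCTGA
small-subunit rRNA: acaGgtctgtg
snR41 guide: ccaattgttccgaCTGA
small-subunit rRNA: ggAacaattgg
snR63 guide: agtcatagttacaCTGA
large-subunit rRNA: gtaActatgact
The marked bases are number 1428 and number 541 of the small-subunit rRNA for snR56 and snR41, and number 2256 of the large-subunit rRNA for snR63, counted from the first base of the mature rRNA (genes RDN18-1 and RDN25-1 on chromosome XII). The paired runs were 11, 11 and 12 bases long. For snR190 and snR70 the longest runs were 10 bases in the large- and the small-subunit rRNA, with no CTGA close behind them. No such run longer than 10 bases was found for snR4 and snR45, which guide acetylation of cytidines in the small-subunit rRNA rather than methylation. None of the 34 members shares a run of 30 bases with another place in the genome, so their reads were not split between copies of that length.

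Which snoRNAs were in the tables followed their length. How rows were chosen is not known, so absence need not mean that an RNA had no reads. Of 37 annotated snoRNAs of 150 bases or longer, 36 were in the tables, and the missing 1 was snR85, an H/ACA RNA of 171 bases. Of 40 shorter ones, all of box C/D, 2 were in the tables, snR56 with 88 bases and snR41 with 95. H/ACA RNAs are long as a class, with a median of 204 bases against 98 for C/D RNAs. The members are therefore mostly H/ACA guides, and most methylation guides of yeast were not analysed here. The libraries were cut from a gel by size, and the part of that step in the absence of short RNAs was not tested.

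**Figure D1:**
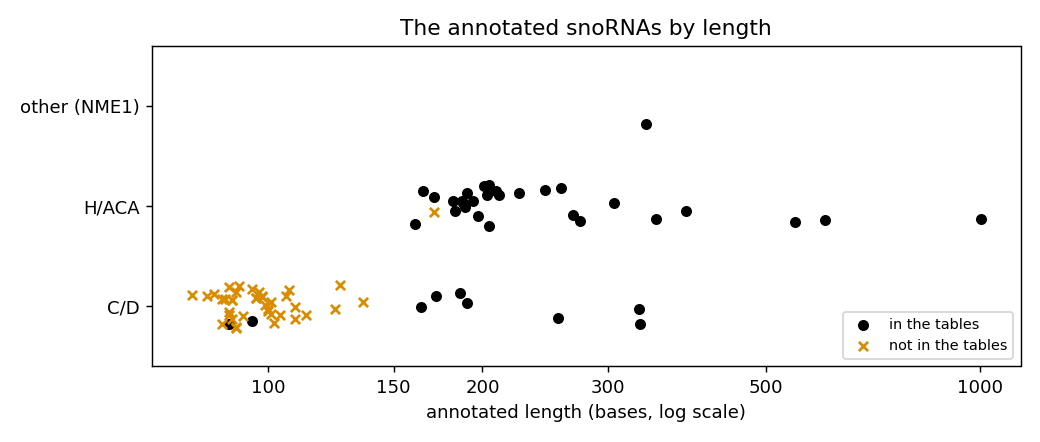
Annotated length in bases (log axis) of the 77 annotated snoRNAs, by class, with vertical scatter only to separate the points. Filled circles are snoRNAs in the tables and crosses those that are not. Nearly all crosses are C/D RNAs under 150 bases.

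The members differed widely in abundance. Normalized counts are read counts divided by a factor for the size of each library, and the mean over all 12 libraries ran from 7.88 for snR70 to 852 for snR37, with a median of 65.9 against 18.6 over all features. snR37, which guides a pseudouridine in the large-subunit rRNA, had the highest mean of all 1042 features and supplied 21.4% of the summed means of the 34 members. The next in order were the large-subunit guides snR42 (306), snR82 (298) and snR5 (245), then NME1 (237). These 5 RNAs held 48.7% of the members' sum. Per 100 bases of annotated length, snR37 stayed first with 221 normalized counts, followed by snR5 (120), snR82 (111), snR42 (87.2) and snR11 (80.0), another large-subunit guide. snR86, the longest member with 1004 bases, moved from place 7 to place 23 on the scale per length. The 7 C/D members had lower mean counts than the H/ACA members, with medians of 38.2 and 83.0 normalized counts not scaled to length. Per 100 bases the difference was small. The middle C/D member, snR56, had 32.0, beside 35.1 for snR49 and 35.3 for snR34, the middle pair of the H/ACA members.

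Single-library values were not analysed here. The level of each member in each group was instead solved from the model estimates in the tables. A 95% interval was taken from its standard error on the log2 scale. Overlap of such intervals between groups is no test of a difference. That error carries the spread between libraries as the model saw it, with a measure of spread shared by the 4 groups. Untreated cultures had the lowest level for 27 of 34 members and the highest for 0. The highest level was seen with 0.5 mM ABA for 19 members, with 2 mM ABA for 8 and with methanol alone for 7. These counts were not made over all features. Of all features tested, 49.9% were above their untreated level with methanol, 49.9% with 0.5 mM and 52.4% with 2 mM ABA. The summed level of the members was 6.13% of all features in untreated cultures, 7.94% with methanol, 8.18% with 0.5 mM ABA and 8.14% with 2 mM ABA. Because normalized counts are relative, more of an RNA per cell and less of the other RNAs cannot be told apart in these values.

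snR5, snR49 and snR80 were the members that passed the test. snR80, a guide for sites in both subunits, had fitted levels of 9.24 normalized counts without treatment (5.18 to 16.5), 17.1 in methanol (9.58 to 30.5), 54.4 at 0.5 mM ABA (32.2 to 92.0) and 34.8 at 2 mM ABA (20.6 to 59.0). snR49, also a guide for both subunits, had 30.7 (22.3 to 42.3), 55.2 (40.1 to 76.1), 81.5 (59.9 to 111) and 64.4 (47.5 to 87.2) in the same order. snR5, a large-subunit guide, had 149 (118 to 189), 239 (188 to 304), 315 (249 to 400) and 277 (219 to 350). For all 3 the untreated level was the lowest and the level with 0.5 mM ABA the highest, and the untreated interval overlapped neither ABA interval. The 3 were picked by their difference between untreated and 0.5 mM ABA, so that gap is no further evidence. The methanol interval overlapped that of 2 mM ABA in each of them, and that of 0.5 mM ABA in snR5 and snR49 but not in snR80.

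**Figure D2:**
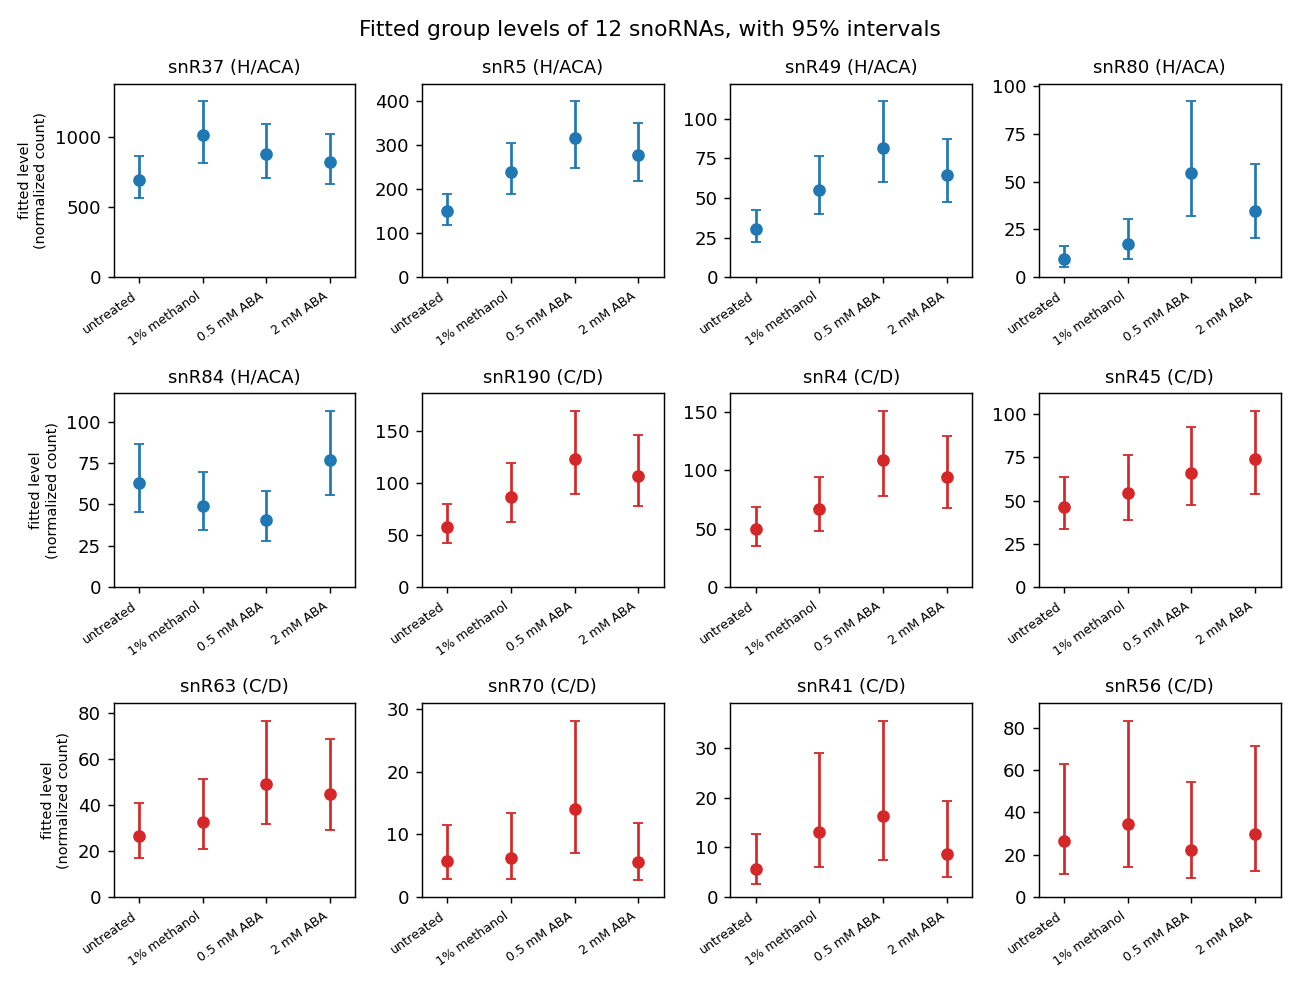
Fitted level (normalized counts) of 12 snoRNAs in untreated cultures and with 1% methanol, 0.5 mM ABA and 2 mM ABA. Points are group levels from 3 libraries each, bars are 95% intervals, and every axis starts at 0. In snR80 the level rose from 9.24 untreated to 54.4 with 0.5 mM ABA, whereas the bars of snR56 overlap in all 4 groups.

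Other members at the ends of the order are given with their levels in untreated, methanol, 0.5 mM and 2 mM ABA cultures, in that sequence. The large-subunit guides snR42 and snR82, next to snR37 in abundance, had 245, 321, 302 and 357, and 259, 342, 314 and 276 normalized counts. snR86 had 198, 216, 167 and 215. The small-subunit guide snR83 had 83.8, 135, 122 and 97.7, highest in methanol like snR82.
snR33 had 26.9, 40.1, 63.6 and 62.0, with an untreated interval (18.6 to 38.8) below both ABA intervals (44.3 to 91.1 and 43.7 to 87.8). snR43, snR191 and snR44 were scarcer, with 22.1, 15.7, 31.5 and 31.1, then 31.1, 27.0, 44.2 and 40.3, then 9.42, 11.5, 21.8 and 25.3 normalized counts. In snR43 and snR191 methanol was the lowest group and in snR44 untreated was, with intervals that overlapped in all groups.

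The comparison of 0.5 mM ABA with untreated cultures asks what the solvent and the hormone do together. A feature was called when its absolute log2 fold change was over 1 and its p from a Wald test, Benjamini-Hochberg adjusted over all features of the comparison, was at most 0.05. Of 32 members tested, 3 were called, all higher, against a background of 0.573% of the 698 features tested. The log2 fold changes were 2.56 for snR80 (SE 0.58), 1.41 for snR49 (SE 0.33) and 1.08 for snR5 (SE 0.25), each with an adjusted p of 0.00387 (two-sided Wald test on DESeq2 estimates). The same 3 passed without the fold minimum, where the background was also 0.573%. When p was instead taken from a t distribution (8 degrees of freedom), each had an adjusted p of 0.604 and 0 members were called. snR5 stood just above the fold minimum and fell to 0.98 once a trend with GC content or with length was removed. At an unadjusted p under 0.05 were 16 members, all higher, or 50.0% of those tested against 8.02% of all features.
The median log2 fold change of the 32 members was 0.80, against 0.00 over all features, and 28 were above 0. Among the members not called, the largest were 1.24 for snR33, a large-subunit guide, and 1.21 for snR44, a guide for both subunits, with adjusted p of 0.0983 and 0.648. At the other end stood snR84 with -0.64, snR56 with -0.25 and snR86 with -0.25, none of which passed (adjusted p of 0.751, 0.941 and 0.828).

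With 2 mM ABA against untreated cultures, which was computed from the other tables, 0 of 34 members were called, against 0.476% of 840 features (Wald test on DESeq2 estimates). Without the fold minimum 1 member passed, snR5 with a log2 fold change of 0.89 (SE 0.25, adjusted p = 0.0494), against a background of 0.595%. Its adjusted p ranged from 0.0383 to 0.977 over the other settings tried. At an unadjusted p under 0.05 were 17 members, all higher, or 50.0% against 8.21% of all features. Above 0 were 33 of 34 members, with a median of 0.70 against 0.03 over all features. The largest estimates were 1.91 for snR80, 1.43 for snR44 and 1.21 for snR33, and the smallest -0.03 for snR70, 0.095 for snR82 and 0.12 for snR86. Both comparisons rest on the same untreated libraries.

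Methanol alone was compared with untreated cultures to see what the solvent contributes. None of the 34 members was called, nor any of 1042 features, so the background was 0% (Wald test on DESeq2 estimates). At an unadjusted p under 0.05 were 5 members, all higher, against 3.93% of all features: snR5, snR35, snR37, snR49 and snR83. All had an adjusted p of 0.998. The median of the members was 0.40 against 0.00 over all features, and 31 of 34 were above 0. With the trend of fold change on length over all features removed, the median was 0.23. The 3 largest estimates were 1.22 for snR41 (SE 0.84), 0.89 for snR80 (SE 0.60) and 0.85 for snR49 (SE 0.33). Below 0 were snR43 (-0.50), snR84 (-0.36) and snR191 (-0.21), all guides for the large subunit.
snR37, the most abundant member, had 696 normalized counts without treatment (562 to 863) and 1011 in methanol (815 to 1254), then 879 (708 to 1091) and 822 (663 to 1019) with the lower and higher ABA dose. Its highest level was thus in the solvent group, with overlapping intervals throughout. NME1 had 213, 277, 211 and 248 in the same order of groups, also with overlapping intervals.

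The comparisons of ABA with methanol ask what the hormone adds to its solvent. With 0.5 mM ABA 0 of 34 members were called, and 0% of 1042 features (Wald test on DESeq2 estimates). At an unadjusted p under 0.05 were 4 members, all higher, against 7.49% of all features. They were snR80 with a log2 fold change of 1.67 (0.54 to 2.80), snR161 with 0.85 (0.05 to 1.64), snR32 with 0.78 (0.12 to 1.43) and snR4 with 0.70 (0.02 to 1.38), with adjusted p between 0.611 and 0.627. snR161 guides sites in the small and snR32 sites in the large subunit. The median was 0.39 against 0.01 over all features, with 25 of 34 above 0. Other large estimates were 1.2 for snR70 (SE 0.77) and 1.01 for snR43 (SE 0.54), and the smallest were -0.64 for snR56 (SE 0.93), -0.40 for NME1 (SE 0.29) and -0.37 for snR86 (SE 0.22).
With 2 mM ABA 0 of 34 members were called, against 0.119% of 840 features (Wald test on DESeq2 estimates). At an unadjusted p under 0.05 were 0 members, against 10.5% of all features. The median was 0.33 against 0.01, with 24 of 34 above 0. snR44 had 1.14 (SE 0.64), snR80 1.03 (SE 0.58) and snR43 0.99 (SE 0.54), while snR41 had -0.59 (SE 0.83), snR83 -0.46 (SE 0.30) and snR82 -0.31 (SE 0.26). For 14 of 34 members at each dose the 95% interval of the fold change from methanol lay within 2-fold in both directions. For the other 20 a 2-fold difference was thus within the error. Over all features the interval lay within 2-fold for 18.5% with 0.5 mM and 22.9% with 2 mM ABA.

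**Figure D3:**
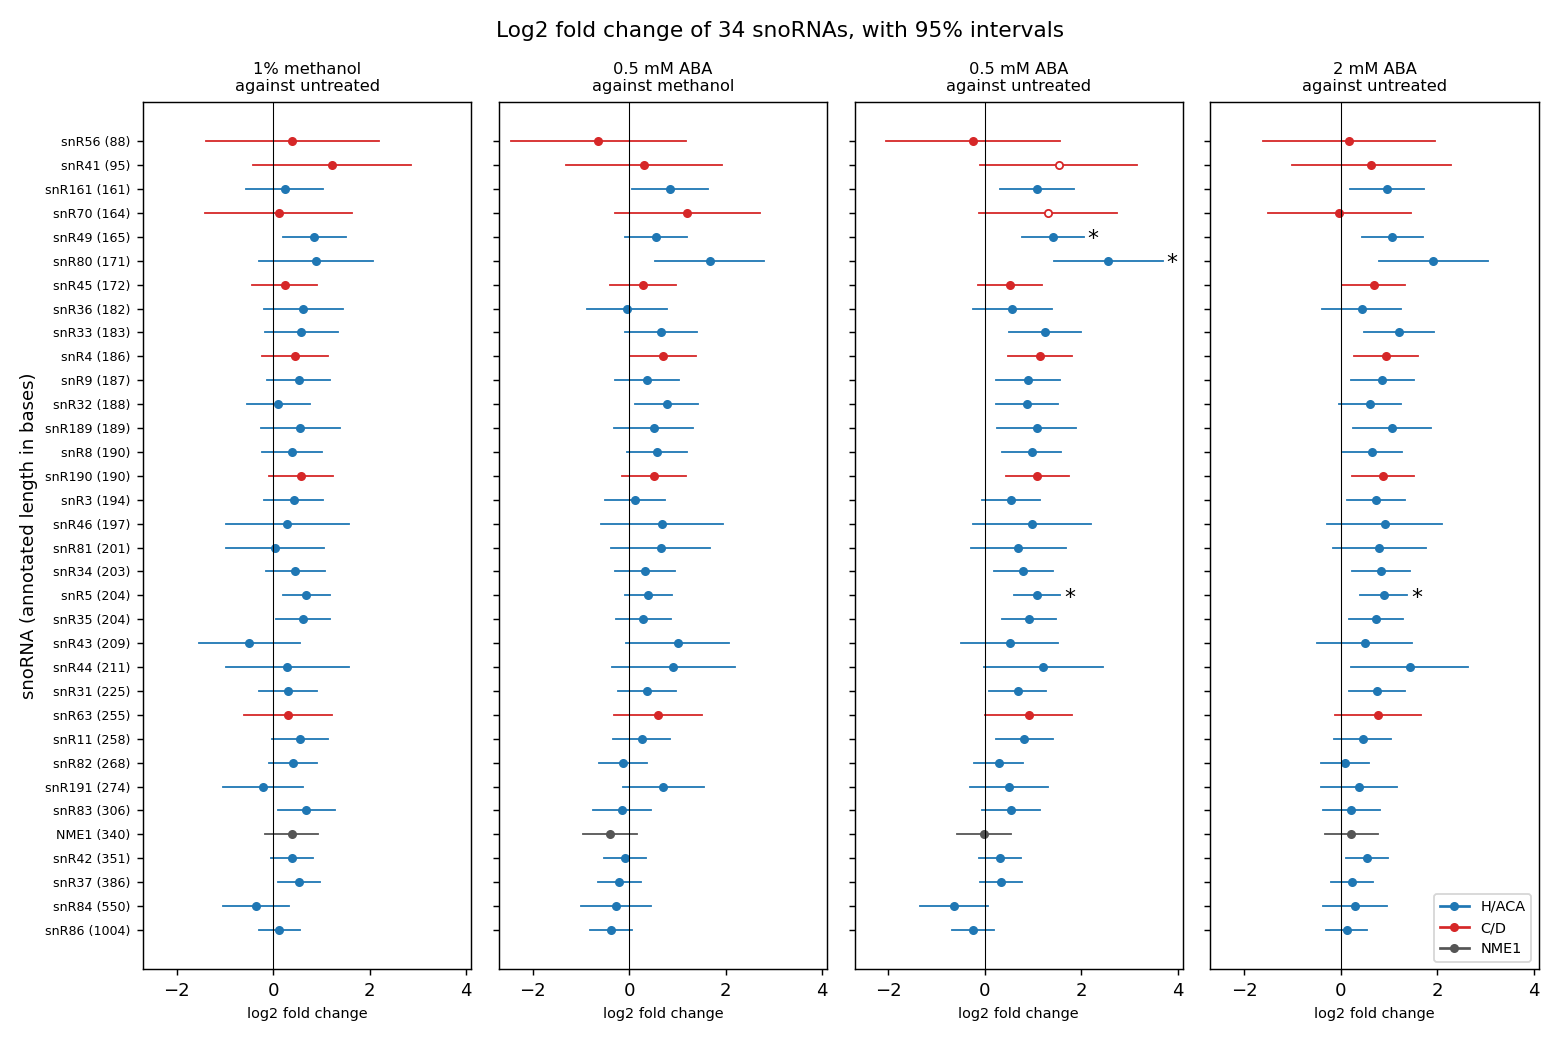
Log2 fold change of 34 snoRNAs in 4 comparisons, ordered by annotated length (in brackets, bases), shortest at the top. Points are estimates, bars are 95% intervals, open points are the 2 members not in that table, and a star marks an adjusted p of at most 0.05 (snR80, snR49 and snR5 with 0.5 mM ABA and snR5 with 2 mM ABA, both against untreated).

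Between the doses, 0 of 34 members were called, and 0% of 1042 features (Wald test on DESeq2 estimates). At an unadjusted p under 0.05 was 1 member, snR84, against 5.09% of all features. snR84, a large-subunit guide of 550 bases, had 62.8 normalized counts without treatment (45.4 to 86.8), 49.0 in methanol (34.5 to 69.5), 40.4 at 0.5 mM ABA (28.1 to 58.2) and 77 at 2 mM ABA (55.6 to 107). Its log2 fold change from the lower to the higher dose was 0.93 (SE 0.36, adjusted p = 0.599). The median of the members was -0.11 against -0.02 over all features, and 11 of 34 were above 0. The interval lay within 2-fold for 24 of 34 members and for 21.4% of all features.

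Among the C/D members, the sequences of snR70, snR56 and snR41 are shown whole because these 3 were the least certain in value. Capitals mark box C (ATGATGA or GTGATGA in the first 20 bases) and box D (CTGA in the last 20 bases).
snR70: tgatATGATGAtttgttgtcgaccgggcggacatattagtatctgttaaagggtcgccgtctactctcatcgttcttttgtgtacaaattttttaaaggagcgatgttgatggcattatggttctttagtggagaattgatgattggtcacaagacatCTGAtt
snR56: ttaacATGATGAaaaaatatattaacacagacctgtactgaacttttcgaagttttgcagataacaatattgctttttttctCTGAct
snR41: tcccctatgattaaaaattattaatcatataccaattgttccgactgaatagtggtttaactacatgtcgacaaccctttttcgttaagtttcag
snR56 lies at chrII:88190-88277 on the plus strand, snR70 at chrXVI:718887-719050 and snR41 at chrXVI:719148-719242, both on the minus strand. Box D letters were found in 6 of 7 C/D members (85.7%) and in 47 of all 77 annotated snoRNAs (61.0%), and box C letters in 3 of 7 (42.9%) and in 33 of 77 (42.9%). snR41 had neither within these windows.
The 3 are methylation guides for the small subunit. snR41 had fitted levels of 5.63 normalized counts without treatment (2.50 to 12.7), 13.1 in methanol (5.93 to 29.0), 16.3 at 0.5 mM ABA (7.43 to 35.6) and 8.72 at 2 mM ABA (3.91 to 19.4). snR70 had 5.68 (2.79 to 11.6), 6.15 (2.82 to 13.4), 14.1 (7.09 to 28.2) and 5.57 (2.64 to 11.8). Both were highest with 0.5 mM ABA, with intervals that overlapped in all groups. Neither was in the table of 0.5 mM ABA against untreated, for which the group levels give log2 fold changes of 1.53 (SE 0.83) and 1.31 (SE 0.73). snR56 had 26.3 (11.0 to 63.1), 34.5 (14.3 to 83.4), 22.1 (9.01 to 54.4) and 29.7 (12.4 to 71.4). Its standard errors were the largest among the members in every comparison, 0.91 to 0.93, against 0.55 to 0.60 for snR80 at nearly the same mean count (28.2 and 28.9).

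snR63 is a methylation guide for the large subunit. snR190 was classed with the methylation guides, but the search above found no CTGA close behind its longest run, and methylation by it was not tested. It is also known for a part in pre-rRNA processing. snR190 had 58.0 normalized counts without treatment (42.1 to 80.0), 86.3 in methanol (62.2 to 120), 123 at 0.5 mM ABA (89.2 to 169) and 106 at 2 mM ABA (77.7 to 146). snR63 had 26.3 (17.0 to 40.8), 32.6 (20.7 to 51.4), 49.2 (31.7 to 76.5) and 44.7 (29.1 to 68.8). The untreated and 0.5 mM intervals of snR190 did not overlap, and those of snR63 did.
The acetylation guide snR4 had 49.4 (35.5 to 68.7), 67.0 (47.7 to 94.2), 109 (78.4 to 151) and 94.1 (68.1 to 130) in the same order of groups, and snR45 had 46.3 (33.6 to 63.9), 54.5 (38.9 to 76.3), 66.2 (47.5 to 92.3) and 74.1 (54.0 to 102). Against untreated cultures, snR4 and snR190 had an adjusted p of 0.0983 each with 0.5 mM ABA, above the threshold. Over the C/D members the median log2 fold change was 0.39 with methanol against untreated, with 7 of 7 above 0, then 0.51 with 0.5 mM and 0.30 with 2 mM ABA against methanol, with 6 and 4 of 7 above 0. The corresponding medians of the 26 H/ACA members were 0.41, 0.39 and 0.36.
A further pair of guides have unusual targets. snR35 guides the pseudouridine of the small subunit that later receives further modifications, and had 104 (78.7 to 137), 159 (120 to 210), 195 (148 to 258) and 171 (130 to 225) normalized counts in the order untreated, methanol, 0.5 mM and 2 mM ABA. snR81, which serves both the large subunit and the U2 spliceosomal RNA, had 17.9 (11.1 to 29.0), 18.4 (11.0 to 30.9), 29.0 (17.7 to 47.4) and 31.2 (19.5 to 49.8).

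Grouped by target, the 4 H/ACA guides for both subunits (snR44, snR49, snR80 and snR189) had a median log2 fold change of 1.31 with 0.5 mM and 1.25 with 2 mM ABA against untreated cultures. The 5 guides for the small subunit alone had 0.68 and 0.72, and the 16 for the large subunit alone 0.67 and 0.57. Against methanol the medians with 0.5 mM ABA were 0.74, 0.30 and 0.35 in the same order. The difference between these groups was not tested, and the first group holds 2 of the 3 called members.

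Longer members had smaller fold changes in the comparisons with untreated cultures and in that of 0.5 mM ABA with methanol. Spearman's rho between annotated length and log2 fold change was -0.57 over 32 members with 0.5 mM ABA against untreated and -0.40 over 34 with 2 mM, while over all features it was -0.04 and -0.08. With methanol against untreated it was -0.26 over the members and -0.21 over all features, so the trend there was nearly that of all features. Against methanol it was -0.41 with 0.5 mM and -0.10 with 2 mM ABA over the members, and 0.11 at each dose over all features. These values describe RNAs of the same libraries, and length also went with mean count among the members (rho of 0.55). Mean count itself had a rho with fold change of -0.58 with 0.5 mM and -0.46 with 2 mM ABA against methanol. Over all features these were -0.02 and -0.05. Against untreated the members had 0.24 with methanol, -0.30 with 0.5 mM and -0.25 with 2 mM ABA. Length and mean count were not told apart. Split at the median length of 199 bases, the shorter 17 had a median of 0.56 and the longer 17 of 0.30 with 0.5 mM ABA against methanol. The 6 members over 300 bases (snR83, NME1, snR42, snR37, snR84 and snR86) were all below 0 there, between -0.40 and -0.09. With 2 mM ABA against methanol this did not hold: snR84 had 0.65 and snR42 0.15, and the others lay between -0.46 and -0.006. Among the 28 members under 300 bases rho with length was -0.05 with 0.5 mM ABA against methanol and -0.27 with methanol against untreated. Over 26 of them it was -0.33 with 0.5 mM ABA against untreated. With mean count, rho over the 28 was -0.49 with 0.5 mM ABA against methanol. Between the doses rho with length was 0.36 over all 34. The same order was seen in small RNAs outside the members. With 0.5 mM ABA against methanol, the U5 RNA and the U4 RNA (snR14, 160 bases) had log2 fold changes of 0.76 and 0.82. The long and short forms of U5 (snR7-L, 214 bases, and snR7-S, 179 bases) held identical values, so these cannot be given to either form. The longer U1 RNA (snR19, 568 bases) and U2 RNA (LSR1, 1175 bases) had -0.28 and -0.15. Among the cleavage snoRNAs, snR10 with 245 bases had 0.24, and snR17a, snR17b and snR30 with 332 to 606 bases had between -0.56 and -0.15. The part of RNA length in the library steps in these differences was not tested.

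**Figure D4:**
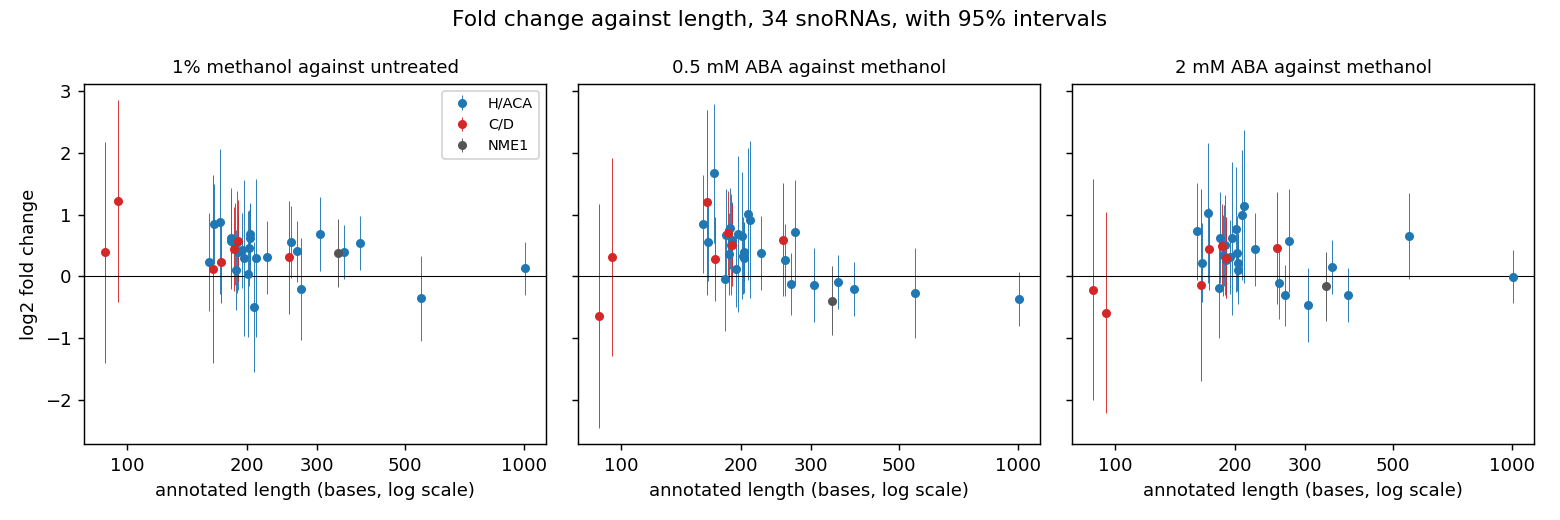
Log2 fold change of 34 snoRNAs against annotated length in bases (log axis) with methanol against untreated and with each ABA dose against methanol. Points are estimates and bars 95% intervals. With 0.5 mM ABA the 6 members over 300 bases lie between -0.40 and -0.09, and with 2 mM ABA between -0.46 and 0.65.

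The members were next compared with the annotation around them. No other annotated feature overlapped 16 of the 34 members in the deposited annotation. On the opposite strand, 15 members overlapped a feature, and the sources used here do not say whether the counting used strand, so reads of such pairs cannot be told apart. Among them is snR49, whose 165 bases all lie opposite BRE5, a gene not in the tables. snR5 and snR80 overlapped nothing else. Of the opposite features, 2 were in the tables. RPS8A, a ribosomal protein gene, lies across all 88 bases of snR56, and had log2 fold changes of 0.28 with methanol against untreated and -0.31 and -0.37 with 0.5 mM and 2 mM ABA against methanol, beside 0.39, -0.64 and -0.22 for snR56. VMA9, a subunit of the vacuolar proton pump, overlaps 18 bases of snR43. On the same strand, snR44 lies in an intron of RPS22B and snR191 in an intron of NOG2, and snR83 shares 1 base with YMR182W-A. With 2 mM ABA against untreated, RPS22B had 0.75 and NOG2 0.13, beside 1.43 for snR44 and 0.37 for snR191.
Some members lie close to other snoRNAs. snR70 and snR41 are 97 bases apart on the same strand, next to snR51 with 107 bases, which was not in the tables. snR190 lies 69 bases from snR128 (U14, 126 bases), likewise not in the tables. snR5 and snR31, a guide for the small subunit, are divergent with 220 bases between them. snR31 had log2 fold changes of 0.31 with methanol and 0.68 and 0.75 with the lower and higher ABA dose, all against untreated, where snR5 had 0.68, 1.08 and 0.89.

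Most genes for proteins that work with the guides were not in the tables. Absence was common among genes in general, as the tables hold 1042 features and the annotation 6656 nuclear start codons. Of 28 genes for snoRNP core proteins, assembly factors and processing enzymes, 7 were listed, and of 10 genes for snoRNA 3′ end formation 0 were. Of the 7, of which 5 to 7 were tested in each comparison, 0 were called in either direction in any comparison and 0 had an unadjusted p under 0.05 (Wald test on DESeq2 estimates). CBF5, the pseudouridine synthase, had log2 fold changes of -0.60 with methanol against untreated and 0.51 and 0.04 with 0.5 mM and 2 mM ABA against methanol. NOP1, the methyltransferase, had -0.02, -0.01 and 0.19, and its partners NOP56 and NOP58 had -0.22, 0.46 and 0.28, and 0.22, 0.16 and -0.17. The largest estimates among the 7 were those of XRN1, a 5′ exonuclease, with -0.07, 1.09 and 0.20, and of SNU13, which binds the C/D core, with 0.61, -0.78 and -0.67. NOP10, an H/ACA core protein, had -0.44, 0.18 and 0.61, of which the last was not tested. Of 8 genes that carry snoRNAs in their introns, 0 were called in either direction, 0 to 2 had an unadjusted p under 0.05 in each comparison, and their median was -0.29 with 0.5 mM and 0.08 with 2 mM ABA against untreated.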

How the data were processed

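The authors collapsed identical reads, aligned them to R64-1-1 with Novoalign, placing reads with several matches at random, counted reads per feature with pyCRAC and ran DESeq2. The mean column they deposited is a signal, the count divided by size factors and averaged over 12 libraries. Per row, the authors deposited log2 fold changes with standard errors from their model. The tables hold nothing else that bears on the conditions, so both were used here, and the deposited test statistics and p-values were not. The fold changes printed for the comparisons as deposited therefore equal the authors' estimates. The sources used here do not say how rows were chosen for the tables or whether counting used strand. Depth per library is unknown, and no count model was fitted.

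The values under the title of 2 mM ABA against untreated were those of 0.5 mM ABA less methanol (largest gap 7.99e-15 on the log2 scale), and were used as such. 2 mM ABA against untreated was obtained by summing tables. Group variances were solved from the squared standard errors, and group levels scaled to the deposited mean. Wald p-values (normal, two-sided) were adjusted by Benjamini-Hochberg over all features of a comparison. The p-values rest on standard errors of a model in which the 4 groups of 3 libraries share a dispersion, a measure of spread, for each feature. They do not measure the spread within the compared groups alone. The calling step was run on simulated fold changes, drawn from a normal distribution with the standard errors of the tables. That run takes those errors and the normal distribution as given, so it cannot say whether the calls made here are right. Sequences were read from RefSeq R64, in which all 6656 nuclear start codons of the annotation read ATG. Classes, roles and targets of the snoRNAs are general knowledge.

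The members, lists and tests were chosen with earlier results of these data known. Values were given for members that were called or past the adjusted threshold, the 5 most abundant, the 3 highest and 3 lowest of each comparison with methanol or untreated as reference, all C/D members and the guides with unusual roles. Other genes, the cuts at 150 and 300 bases and the box windows were chosen after values were seen. Alternatives were other thresholds, a t distribution, filters, centring, and removal of GC or length trends. The software was scipy 1.17.1, matplotlib 3.10.9, pandas 2.3.3 and numpy 2.4.6 under Python 3.11.15.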

Additional observations from a re-analysis of the deposited data

How the results depend on the processing

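The median log2 fold change of the members kept its sign in all 37 values recomputed under other settings. Settings that leave out a few members, or centre on a median of all features near 0, could hardly change the sign. The comparisons also share groups, so these values say little about stability. Leaving out NME1 was a setting added after seeing the data. Among the 37 is 0.39, found under the title of 2 mM ABA against untreated, where the values are those of 0.5 mM ABA against methanol. It is therefore another comparison and no other setting of the 2 mM comparison (0.70), and its calls are among the 49 counts below. The largest move apart from it was from 0.40 to 0.23 for methanol against untreated with the length trend removed. Counts of called members stayed within 1.5 times in 46 of 49 recomputed counts. Only 0.5 mM ABA against untreated had any member called in the main setting. Most of these counts therefore set 0 against 0 and say little about how stable the calls are. The counts outside that range, in 2 comparisons with untreated cultures, were as follows. With 0.5 mM ABA, 6 members were called at an adjusted p of at most 0.1 and 0 when p came from a t distribution (8 degrees of freedom), against 3. With 2 mM ABA, 1 was called without the fold minimum, against 0. With the GC or the length trend removed, 2 were called with 0.5 mM ABA, snR49 and snR80. No paired analysis was possible because single-library values were not analysed here, and for the same reason no library could be left out. With 3 libraries per group, the median standard error of 0.33 to 0.34 among the members limits what could be called.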
